A study of Rattus norvegicus with 10 samples.

Results

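Follicle-stimulating hormone (FSH) was given to cultured Sertoli cells of 20-day-old rats, and the transcripts described here are those that stood apart in the middle of the course. The 4 arrays of cultures treated with FSH for 4 h and 8 h (the middle arrays) were set against the 4 arrays of untreated cultures at 0 h and of cultures treated for 24 h (the end arrays). These are 8 of the 10 arrays of the study, which sampled 5 times with 2 arrays (n = 2) each; the 2 h arrays were kept out of the comparison and used afterwards. All groups share the same cells in culture, and FSH is the agent named for the 4 h, 8 h and 24 h cultures, with no dose in the labels. No untreated culture was labelled later than 0 h, so the effects of FSH and of time in culture cannot be told apart. The labels do not say that replicates were separate cultures, so p-values measure only how these samples varied, and that variation may be technical. The 2 h array with no number was taken as replicate 1 because its partner carries the number 2, and a control array whose title names no time is described as time 0.

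Sertoli cells are the somatic cells of the seminiferous tubule that support germ cells, and FSH acts on them through the receptor Fshr. The receptor couples to Gs and adenylyl cyclase, cAMP releases the catalytic subunits of protein kinase A, and these phosphorylate CREB at cAMP response elements. An inducible repressor encoded within the Crem gene, phosphodiesterases and phosphatases then damp the signal. Products linked to FSH in Sertoli cells include inhibin alpha, plasminogen activator and enzymes that supply germ cells with metabolites.

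Of 8740 probe sets that are not array controls, 4439 were bright enough to test. Median deposited intensity ran from 26.7 to 44.4 per array, replicates correlated across tested probe sets at r = 0.867 to 0.905, and the small number of arrays limits the precision of every value. Clu, the abundant secreted Sertoli glycoprotein clusterin, had scaled intensities of 11366 and 9789 at 4 h and 11879 and 7544 at 8 h, against 13769 and 7697 at 0 h and 9260 and 6763 at 24 h. Of the 10 tested Sertoli markers 1, Inha, rose. Other cell types left traces: 6 germ cell markers were tested and 0 were called, with a summed intensity of 513 to 2628 on the middle arrays and 198 to 2345 on the end arrays. The meiotic marker Hspa2 was 448 and 538 on the middle arrays of replicate 2 and 109 and 104 on those of replicate 1. Cst8 instead was 81.2 and 118 at 0 h and 11 and 37.1 at 24 h. Ldhc was 569 at 0 h and 58.6 at 24 h in replicate 1, and 1007 and 1314 in replicate 2. Sycp3 in replicate 1 was 22.9 at 0 h, 170 at 4 h, 107 at 8 h and 21.9 at 24 h. In replicate 2 it was 295, 226, 234 and 231 at these times. Its log2 difference, middle minus ends, was 1.20 and was not called. Over the 6 germ cell markers the median difference was 0.30, and 5 lay above 0. The test holds constant only a replicate difference that is the same at every time. The part of germ cells in the differences was not tested. The 3 tested peritubular myoid markers summed to 264 to 612 on the middle arrays and 205 to 1840 on the end arrays, the highest being 24 h replicate 1, and 0 were called; the part of such cells in the differences was not tested. Leydig, endothelial and macrophage lists had 1 tested gene each and 0 called. In bulk RNA, fewer cells of a type and less RNA per cell cannot be told apart.

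In the middle of the course far more transcripts stood above the ends than below them. By limma with the replicate number as a block, 111 probe sets (2.5% of those tested) rose and 11 (0.248%) fell at a Benjamini-Hochberg adjusted p under 0.05, 122 in all (2.75%). An unadjusted p under 0.05 was found for 600. The rises covered 76 genes, or 2.78% of the 2733 with 1 symbol, and the falls 7 genes, or 0.256%. Rises measured 0.95 to 4.28 on the log2 scale with a median of 1.74, that is 1.93-fold to 19.4-fold, while the median of all tested probe sets was -0.04. For 97 of the 111 every middle array lay above every end array, which holds for 4.6% of all tested probe sets. For all 11 falls every middle array lay below every end array, against 1.8%. The called probe sets were chosen on these same arrays, so this separation follows in part from the choice and is a description.

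The rises had the same sign in both replicates. Their median difference was 1.92 log2 units within replicate 1 and 1.71 within replicate 2. The median fall was -1.29 in replicate 1 and -1.39 in replicate 2. These directions follow in part from the choice of called probe sets and are given as descriptions.

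A rise against the pooled ends could come from 1 end alone, so each end was also tested separately, in a fit with 1 mean for each of the 5 times. Against 0 h, 150 probe sets (3.38%) were higher in the middle and 17 (0.383%) lower. Against 24 h, 90 (2.03%) were higher and 17 (0.383%) lower. Higher against both ends were 72 (1.62%), of which 68 are among the 111, and lower against both were 4 (0.0901%), all among the 11. Against 24 h the called probe sets of Pde4d, Dusp1, Klf4, Inha, Tpm4, Gja1 and Blmh missed the threshold (adjusted p = 0.0664 to 0.215). Each was called against 0 h, as were the second probe sets of Scarb1 and Nr1d1, likewise not called against 24 h. Ctsl, Cnn3, Gstt2, Nr0b2 and 1 of 2 Pcna probe sets were called against neither end. The other Pcna probe set and the weaker of Dbp were called against 24 h alone. Between the ends themselves 4 probe sets (0.0901%) were higher at 24 h than at 0 h and 0 were lower, with 412 at an unadjusted p under 0.05. Those 4 belong to Star, Inha, Bmyc and Wfdc1, and the count was 0 without the replicate block or without either 24 h or either 4 h array. The second probe sets of Star (1.74, adjusted p = 0.0599) and Inha (1.16, adjusted p = 0.175) were not called between 24 h and 0 h. Over the 111 rises the difference 24 h minus 0 h had a median of 0.33 and ran from -0.76 to 2.99, and 84 were above 0; the median of all tested probe sets was 0.02.

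**Figure D1:**
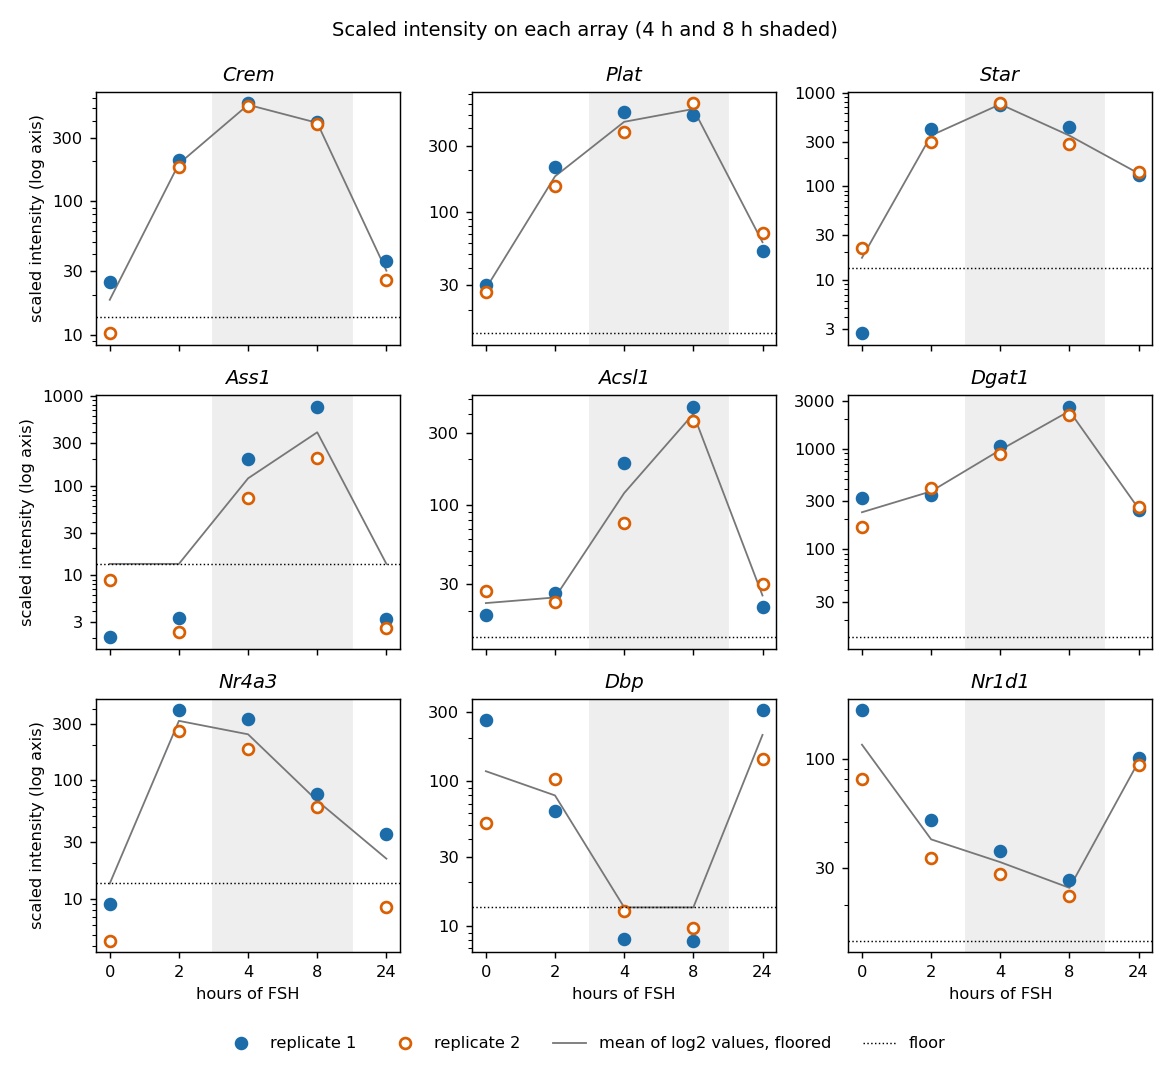
Scaled intensity (log axis) of 9 genes on each of the 10 arrays by hours of FSH, with times evenly spaced; filled points are replicate 1, open points replicate 2, the grey line the mean of log2 values after flooring, the dotted line the floor of 13.5 and the shaded band the 4 h and 8 h arrays. Crem, Plat, Star, Ass1, Acsl1, Dgat1 and Nr4a3 are higher inside the band than at 0 h and 24 h, and Dbp and Nr1d1 are lower there.

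Among transcription factors, Crem, which encodes cAMP-responsive activators and repressors of transcription, had the largest fitted log2 difference of the 111 rises, and all 3 of its tested probe sets rose (of 4 on the array). Its rank over Ass1, with 4.03, rests on the floor, which makes the Ass1 value a lower bound. On the strongest, intensity was 547 and 518 at 4 h and 396 and 383 at 8 h, against 24.8 and 10.2 at 0 h and 35.7 and 25.5 at 24 h. All middle arrays were bright, all end arrays were dim, and the groups did not overlap. The mean was 461 ± 83.6 in the middle and 24.1 ± 10.5 at the ends (SD, n = 4 each), a log2 difference of 4.28 ± 0.29 (SE, adjusted p = 8.75e-06). The end mean lay under the intensity filter of 31.9, so this probe set passed only through its other arrays. Its p-value is given as a description. The other probe sets gave 3.48 and 2.97. At 24 h Crem was 0.73 ± 0.30 log2 units from its 0 h level, which was not called (adjusted p = 0.499).

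Nr4a3, an orphan nuclear receptor of the immediate early class, had 327 and 182 at 4 h and 76.3 and 59 at 8 h, against 8.97 and 4.44 at 0 h and 35.3 and 8.6 at 24 h. The 8 h arrays were dimmer than the 4 h arrays, and 3 of the 4 end arrays lay under the floor of 13.5. The log2 difference was 2.90 ± 0.50 (adjusted p = 0.00503), while a second Nr4a3 probe set gave 0.19 and was not called. Its relative Nr4a1 was 1330 and 496 at 4 h and 129 and 114 at 8 h, against 70.0 and 101 at 0 h and 212 and 71.8 at 24 h. One 24 h array was brighter than both 8 h arrays, and the difference of 1.62 ± 0.64 was not called (adjusted p = 0.269).

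Klf4, a zinc finger factor linked to Sertoli cell differentiation in mice, rose by 1.71 log2 units (adjusted p = 0.0369). It had 711 and 149 at 4 h and 276 and 101 at 8 h, against 53.1 and 54.2 at 0 h and 153 and 57.8 at 24 h, so the groups overlapped through replicate 1 at 24 h. A further Klf4 probe set gave 1.97 and missed the threshold (adjusted p = 0.0596). Of the 21 tested genes of the immediate early and CREB target list, 3 rose (Crem, Nr4a3 and Klf4) and 0 fell, where 2.78% of all genes rose and 0.256% fell; each list count below is to be read against these shares. The list's median was 0.50 log2 units and 17 of 21 lay above 0, beside a median of -0.05 and 1230 of 2733 over all genes.

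Genes from the lists of cAMP feedback and of MAP kinase brakes also rose. Pde4d, a phosphodiesterase that degrades cAMP, had 159 and 86.0 at 4 h and 145 and 63.4 at 8 h, against 23.2 and 12.2 at 0 h and 67.6 and 31.8 at 24 h. The groups overlapped, since 24 h replicate 1 exceeded 8 h replicate 2, and the log2 difference was 1.89 ± 0.38 (adjusted p = 0.0142). Against 24 h alone the difference was 1.19 and was not called (adjusted p = 0.0994). With Crem, Pde4d made 2 rises and 0 falls among the 16 tested genes of the cAMP pathway and its feedback, whose median was -0.04. Fshr itself was 126 and 68.8 at 4 h and 81.2 and 56.6 at 8 h, against 194 and 88.2 at 0 h and 109 and 62.4 at 24 h. These ranges overlapped and the difference of -0.39 was not called (adjusted p = 0.652).

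Ptp4a1, a small tyrosine phosphatase anchored to membranes, was among the brightest risen genes. It had 4212 and 2824 at 4 h and 1997 and 1615 at 8 h, against 187 and 290 at 0 h and 335 and 369 at 24 h. Every middle array was far brighter than every end array, with a mean of 2662 ± 1150 in the middle and 295 ± 79.2 at the ends. The log2 difference was 3.12 ± 0.32 (adjusted p = 0.000145). Dusp1, which dephosphorylates MAP kinases in the nucleus, was 174 and 101 at 4 h and 85.5 and 67.5 at 8 h, against 36.0 and 14.8 at 0 h and 68.0 and 26.5 at 24 h. It rose by 1.68 ± 0.36 (adjusted p = 0.0227), with 24 h replicate 1 just above 8 h replicate 2. Further Dusp1 probe sets gave 1.27 (adjusted p = 0.0862) and 1.20 (adjusted p = 0.185). Ptp4a1 and Dusp1 were the 2 rises, with 0 falls, among 8 tested genes of the list drawn up as MAP kinase brakes (median 0.32). Whether Ptp4a1 acts as such a brake in these cells was not tested.

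Promoters of the risen genes were read for the cAMP response element because its binding factors are the end of the FSH pathway. RefSeq promoter windows of assembly GRCr8, from 250 bases before to 50 after the start of each gene, were matched for 61 of the 76 risen genes. Only the first listed window of each risen or tested gene was read, so any other start was not searched. The count over all promoters used every window. The palindrome TGACGTCA lay in 3 of the 61 (4.92%), in 65 of 2273 matched tested genes (2.86%) and in 612 of all 33469 promoters (1.83%). The shorter core TGACG, counted on both strands and including those within a palindrome, lay in 24 of 61 (39.3%), against 33.0% of tested genes and 21.2% of all promoters. The E-box CACGTG lay in 7 of 61 (11.5%), against 10.2% of tested genes and 6.42% of all. These shares are descriptions of letters in these windows.

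The promoters of the 3 risen genes that hold the palindrome are shown with it in capitals, 5′ to 3′. Dusp1 lies at chr10:17184603-17184902 on the plus strand with the element at -124 to -117 from the start. LOC102547700, a locus without an assigned function here, lies at chr14:85622736-85623035 on the minus strand with the element at -15 to -8. Txnl1, a thioredoxin-like protein outside the naming rule and shown because it completes the set, lies at chr18:59425342-59425641 on the minus strand with the element at -73 to -66. For Inha, at chr9:84442859-84443158 on the plus strand, the capitals mark the core on the other strand, CGTCA, at -117 to -113. Inha is shown as an example, being 1 of the 24 risen genes with the core. Other risen genes held more, such as Emd with 4.
Dusp1: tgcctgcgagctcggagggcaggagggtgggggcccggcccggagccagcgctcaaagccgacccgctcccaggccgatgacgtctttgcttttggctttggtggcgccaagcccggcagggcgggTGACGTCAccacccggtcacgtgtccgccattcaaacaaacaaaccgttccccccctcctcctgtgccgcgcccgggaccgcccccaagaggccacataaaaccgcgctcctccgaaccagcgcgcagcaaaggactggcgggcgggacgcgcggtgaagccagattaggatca
LOC102547700: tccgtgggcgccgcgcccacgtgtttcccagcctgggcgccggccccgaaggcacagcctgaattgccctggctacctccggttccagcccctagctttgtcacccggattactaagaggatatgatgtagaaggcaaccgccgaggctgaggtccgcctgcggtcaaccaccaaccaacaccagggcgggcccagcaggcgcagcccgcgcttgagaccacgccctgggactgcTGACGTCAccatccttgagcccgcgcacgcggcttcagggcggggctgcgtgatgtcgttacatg
Txnl1: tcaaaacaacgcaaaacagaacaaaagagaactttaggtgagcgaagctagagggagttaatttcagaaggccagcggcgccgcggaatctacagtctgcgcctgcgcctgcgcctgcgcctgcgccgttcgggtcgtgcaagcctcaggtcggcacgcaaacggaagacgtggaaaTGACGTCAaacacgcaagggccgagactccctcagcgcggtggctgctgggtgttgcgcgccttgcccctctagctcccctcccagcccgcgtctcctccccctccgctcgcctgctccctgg
Inha: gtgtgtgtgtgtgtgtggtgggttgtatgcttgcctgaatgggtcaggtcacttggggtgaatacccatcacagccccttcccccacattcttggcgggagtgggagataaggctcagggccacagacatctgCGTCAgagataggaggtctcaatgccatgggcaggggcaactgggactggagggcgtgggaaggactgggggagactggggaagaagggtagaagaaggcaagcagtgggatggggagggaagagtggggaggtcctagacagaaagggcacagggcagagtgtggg

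LOC102547700, with the element nearest to its start, had 274 and 224 at 4 h and 317 and 213 at 8 h, against 16 and 34.1 at 0 h and 26.1 and 39.0 at 24 h. The groups lay far apart, and the log2 difference was 3.22 ± 0.30 (adjusted p = 8.31e-05), with 2.39 on a second probe set. Txnl1 had 398 and 454 at 4 h and 381 and 521 at 8 h, against 128 and 202 at 0 h and 132 and 234 at 24 h, a rise of 1.37 (adjusted p = 0.0026) with groups that did not overlap.

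Genes that bring cholesterol to the mitochondrion and feed electrons to its cytochromes rose, and their levels at 24 h differed. Star, which carries cholesterol to the inner mitochondrial membrane, had 733 and 772 at 4 h and 428 and 284 at 8 h, against 2.70 and 22.3 at 0 h and 131 and 144 at 24 h. The 4 h arrays were brightest and the 24 h arrays stood between 0 h and the middle. The log2 difference was 3.39 ± 0.68 (adjusted p = 0.0144), the 24 h level was 2.99 ± 0.34 above 0 h (adjusted p = 0.0138), and the middle was 1.90 above 24 h (adjusted p = 0.012). A second Star probe set rose by 2.74.

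Fdx1, the ferredoxin that passes electrons to mitochondrial steroidogenic cytochromes, was 2233 and 2702 at 4 h and 2414 and 2499 at 8 h, against 245 and 247 at 0 h and 796 and 451 at 24 h. The middle level was flat, with a mean of 2462 ± 195, against 435 ± 260 at the ends. It rose by 2.68 ± 0.34 (adjusted p = 0.000704), and by 1.46 on a weaker probe set. Scarb1, the receptor that takes up cholesterol esters from HDL, was 534 and 297 at 4 h and 1434 and 568 at 8 h, against 171 and 87.6 at 0 h and 278 and 175 at 24 h. Its lowest middle array lay just above its highest end array, and it rose by 1.87 ± 0.36 (adjusted p = 0.0112), by 1.92 on a second probe set, and by 1.25 without a call on another (adjusted p = 0.074). Of the 7 tested genes of mitochondrial steroidogenesis 3 rose and 0 fell, with a list median of 0.44.

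In cholesterol synthesis and uptake, Mvk was the only tested gene called. Mvk, the mevalonate kinase of cholesterol synthesis, was 137 and 122 at 4 h and 128 and 147 at 8 h, against 18.1 and 22.7 at 0 h and 19.6 and 31.3 at 24 h. Both levels were tight within their group, and the rise was 2.57 ± 0.27 (adjusted p = 0.000145), with 1.77 on a second probe set. Mvk was the 1 rise, with 0 falls, among 15 tested genes of cholesterol synthesis and uptake, a list with a median of -0.20.

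Among genes of fatty acid activation and triglyceride synthesis, Acsl1 and Dgat1 rose. Acsl1, which links long-chain fatty acids to coenzyme A, had 189 and 76.0 at 4 h and 444 and 358 at 8 h, against 18.8 and 27.2 at 0 h and 21.2 and 30.3 at 24 h. The 8 h arrays were above the 4 h arrays, although 8 h minus 4 h was not called (1.73, adjusted p = 0.333). The difference from the ends was 3.19 ± 0.46 (adjusted p = 0.00182), and further probe sets gave 2.95 with a call and 2.13 without (adjusted p = 0.0511). Dgat1, which completes triglycerides, was 1076 and 883 at 4 h and 2615 and 2154 at 8 h, against 328 and 167 at 0 h and 247 and 262 at 24 h. No end array came near the lowest middle array, and it rose by 2.64 ± 0.34 (adjusted p = 0.000777). Its 8 h minus 4 h difference of 1.28 was not called (adjusted p = 0.313). These were the 2 rises, with 0 falls, among 20 tested genes of this list, whose median was 0.09.

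Ass1, an enzyme that turns citrulline and aspartate towards arginine, lay under the floor on the end arrays and above it on the middle arrays. It had 201 and 73.2 at 4 h and 764 and 206 at 8 h, against 2.05 and 8.88 at 0 h and 3.30 and 2.58 at 24 h. All 4 end arrays lay under the floor of 13.5, so the middle was at least 16.3-fold higher (adjusted p = 0.000476). Ass1 passed the intensity filter only through its middle arrays, and its floored end values add no spread. The p-value is therefore given as a description. Gchfr, the feedback regulator of GTP cyclohydrolase in tetrahydrobiopterin synthesis, was 81.9 and 78.8 at 4 h and 150 and 121 at 8 h, against 4.86 and 38.5 at 0 h and 4.18 and 11.4 at 24 h. It rose by 2.57 ± 0.40 (adjusted p = 0.0026), with 3 of 4 end arrays under the floor.

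Asns, the asparagine synthetase, was 673 and 324 at 4 h and 1504 and 568 at 8 h, against 157 and 64.3 at 0 h and 351 and 167 at 24 h. One 24 h array exceeded one 4 h array, yet within each replicate number both middle arrays were above both end arrays, and the rise was 2.08 ± 0.38 (adjusted p = 0.00808). Gls2, a glutaminase, rose by 2.52 (adjusted p = 0.00123) with 3 of 4 end arrays under the floor. In the list of arginine, nitric oxide and amino acid synthesis 3 of 14 tested genes rose (Ass1, Gchfr and Asns) and 0 fell, while the list's median was -0.31. No gene was called among 19 tested for glucose uptake, glycolysis and lactate (median -0.24) or among 20 for oxidative phosphorylation (median -0.22).

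**Figure D2:**
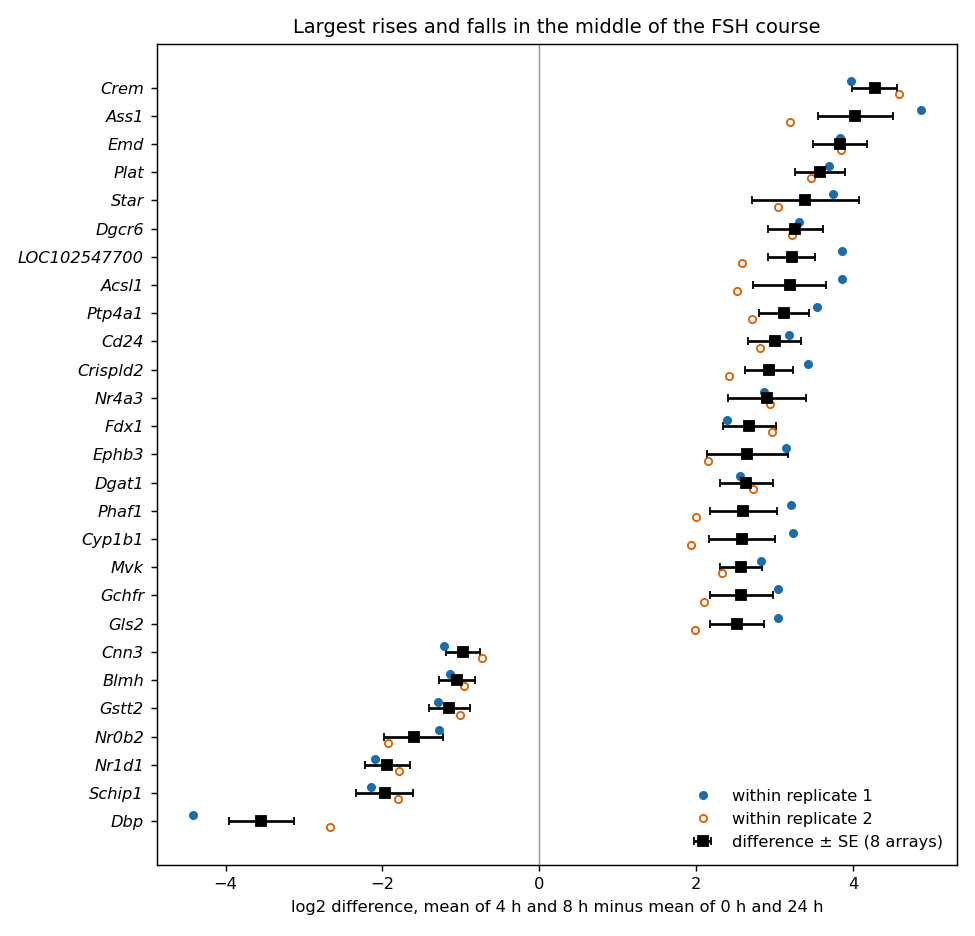
Log2 difference, mean of the 4 h and 8 h arrays minus mean of the 0 h and 24 h arrays, for the 20 largest rises and the 7 falls with 1 gene symbol; black squares and bars are the difference ± SE over 8 arrays, filled blue points the difference within replicate 1 and open orange points that within replicate 2. Both replicates have the same sign for every gene shown, and Ass1 and Dbp have the widest gaps between them.

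Secreted proteins and surface proteins gave further rises. Plat, the tissue-type plasminogen activator that Sertoli cells secrete, was 524 and 379 at 4 h and 500 and 606 at 8 h, against 30.0 and 26.7 at 0 h and 52.5 and 70.9 at 24 h. The middle mean was 502 ± 93.9, against 45.0 ± 20.7 at the ends, a log2 difference of 3.58 ± 0.32 (adjusted p = 8.31e-05). Ctsl, a cysteine protease that Sertoli cells release, rose by 1.09 on 1 probe set (adjusted p = 0.0369) and had 0.33 without a call on another. Plat and Ctsl were the 2 rises, with 0 falls, among 22 tested proteases, plasminogen activators and inhibitors, a list with a median of 0.16.

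Inha, the inhibin alpha subunit by which Sertoli cells restrain pituitary FSH release, was 1222 and 762 at 4 h and 1796 and 767 at 8 h, against 362 and 167 at 0 h and 747 and 404 at 24 h. The highest end array, 24 h replicate 1, lay just under the lowest middle array, and the rise was 1.53 ± 0.31 (adjusted p = 0.0158). A second Inha probe set gave 1.85 without a call (adjusted p = 0.0931), and on it 24 h was 2.43 above 0 h (adjusted p = 0.0138). The activin subunit Inhba was 76.9 and 60.8 at 4 h and 63.7 and 45.7 at 8 h, against 29.1 and 65.7 at 0 h and 57.6 and 44.8 at 24 h, and its difference of 0.37 was not called. Inha and Ctsl were the 2 rises, with 0 falls, among 16 tested secreted Sertoli products (median 0.19). Differences that were not called were 0.15 for Clu, 0.34 for Shbg, which encodes androgen-binding protein, and 0.01 for the anti-Müllerian hormone gene Amh. Receptors and identity factors of Sertoli cells gave 0 calls among 12 tested, with a median of -0.37.

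Cd24, a small anchored surface glycoprotein, rose on all 3 of its tested probe sets. The strongest had 272 and 71.5 at 4 h and 303 and 212 at 8 h, against 32.1 and 6.83 at 0 h and 31.0 and 22.9 at 24 h, a log2 difference of 3.0 ± 0.34 (adjusted p = 0.000315). The Crispld2 gene, which encodes a secreted protein with a CRISP domain, was 184 and 264 at 4 h and 209 and 181 at 8 h, against 7.89 and 39.4 at 0 h and 24.7 and 42.2 at 24 h. For both genes no end array came within reach of the lowest middle array, and the Crispld2 rise was 2.92 ± 0.30 (adjusted p = 0.000145). The receptor tyrosine kinase gene Ephb3, which binds ephrin-B ligands, rose by 2.65 ± 0.52 (adjusted p = 0.0125), with 3 of 4 end arrays under the floor and middle arrays between 28.7 and 294.

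Ezr, the ezrin that ties membrane proteins to actin, was 906 and 720 at 4 h and 854 and 651 at 8 h, against 127 and 121 at 0 h and 172 and 175 at 24 h. The groups lay far apart, and the rise was 2.40 ± 0.23 (adjusted p = 8.31e-05). Gja1, the gap junction protein connexin 43, rose by 1.53 (adjusted p = 0.0358), and these were the 2 rises, with 0 falls, among 14 tested junction genes (median -0.09). In the actin list Ezr and Tpm4, a tropomyosin, rose and Cnn3 fell among 22 tested (median -0.15). Tpm4 was 658 and 492 at 4 h and 1188 and 539 at 8 h, against 185 and 201 at 0 h and 403 and 241 at 24 h, a difference of 1.46 (adjusted p = 0.0139), and a second probe set gave 0.52 without a call.

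Several strong rises fell outside the lists. Emd, which encodes emerin of the inner nuclear membrane, was 318 and 395 at 4 h and 184 and 180 at 8 h, against 10.4 and 12.1 at 0 h and 21.7 and 25.7 at 24 h. Both 0 h arrays lay under the floor, and the difference was 3.83 ± 0.34 (adjusted p = 8.31e-05), with 2.19 on a brighter probe set. Dgcr6, named for the DiGeorge critical region in humans, was 412 and 571 at 4 h and 461 and 640 at 8 h, against 25.4 and 42.6 at 0 h and 76.4 and 98.4 at 24 h. It was level across the middle and rose by 3.26 ± 0.35 (adjusted p = 0.000166). Cyp1b1, a cytochrome that oxidises estradiol and xenobiotics, was 513 and 448 at 4 h and 477 and 458 at 8 h, against 25.4 and 157 at 0 h and 110 and 90.1 at 24 h. The rise of 2.58 ± 0.42 (adjusted p = 0.00356) was called on 3 of 4 tested probe sets, and against 24 h alone this one missed the threshold (2.25, adjusted p = 0.0635). Phaf1, a phagosome assembly factor, rose by 2.60 (adjusted p = 0.00386) with 3 of 4 end arrays under the floor.

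Single list members complete the rises. Nfkb1, the NF-kappaB subunit precursor p105, was 943 and 326 at 4 h and 567 and 257 at 8 h, against 149 and 43.8 at 0 h and 173 and 106 at 24 h. Replicate 1 was above replicate 2 at each of these times and the groups did not overlap, with a rise of 2.14 ± 0.29 (adjusted p = 0.00126), the 1 call among 17 inflammatory genes (median -0.16). Pcna, the sliding clamp of DNA replication, rose on both tested probe sets, by 1.49 (adjusted p = 0.032) and 1.43 (adjusted p = 0.0103), and was the 1 call among 21 cell cycle genes (median 0.15). Txnrd1, the cytosolic thioredoxin reductase, was 278 and 188 at 4 h and 230 and 150 at 8 h, against 93.4 and 92.8 at 0 h and 104 and 77.2 at 24 h. It rose by 1.17 (adjusted p = 0.0114), the 1 call among 23 antioxidant genes (median -0.09). Inha was likewise the 1 call among 15 genes of Id and TGF-beta signalling (median 0.13). No gene was called among 22 tested for extracellular matrix (median -0.02), 20 for heat shock and folding (0.10), 10 for vasoactive peptides (-0.03) or 10 for the insulin-like growth factor system (-0.08).

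**Figure D3:**
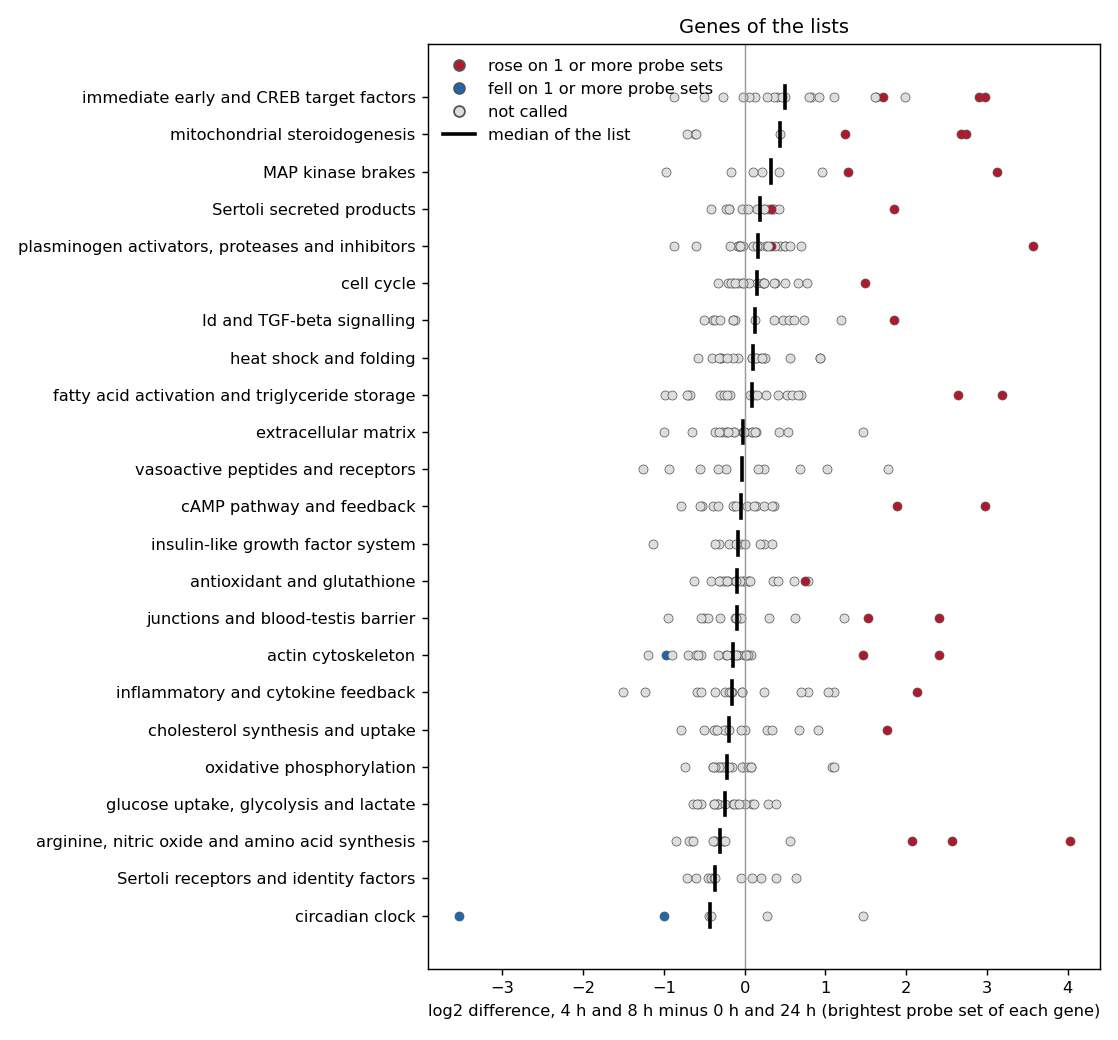
Log2 difference, 4 h and 8 h minus 0 h and 24 h, for the brightest probe set of each tested gene of 23 lists, ordered by the list median (black bar); red genes rose and blue genes fell on 1 or more probe sets and grey genes were not called. No list holds more than 3 rises, and the circadian clock list holds 2 falls.

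The largest fall was that of Dbp, a PAR bZIP activator whose transcription the circadian clock drives. It was 8.11 and 12.8 at 4 h and 7.93 and 9.67 at 8 h, against 267 and 51.7 at 0 h and 309 and 142 at 24 h. All 4 middle arrays lay under the floor of 13.5, so the middle was at least 11.6-fold lower (adjusted p = 0.0004). A second Dbp probe set fell by 2.11 on the log2 scale (adjusted p = 0.012). Nr1d1, the nuclear receptor REV-ERB alpha that represses Bmal1, was 36.3 and 28.3 at 4 h and 26.3 and 22.2 at 8 h, against 171 and 80.1 at 0 h and 101 and 93.2 at 24 h. It fell by 1.94 ± 0.28 (adjusted p = 0.002), and its second probe set fell by 1.00 (adjusted p = 0.038). Of 6 tested clock genes 0 rose and 2 fell, where 2.78% of all genes rose and 0.256% fell, and the list's median was -0.43.

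The remaining named falls came from no common list. Schip1, a partner of the tumour suppressor merlin, was 45.5 and 19.3 at 4 h and 14.9 and 19.1 at 8 h, against 97.5 and 79.4 at 0 h and 135 and 56.8 at 24 h, and fell by 1.97 ± 0.37 (adjusted p = 0.00918). Cnn3, an actin-binding calponin, was 132 and 137 at 4 h and 137 and 142 at 8 h, against 322 and 215 at 0 h and 306 and 246 at 24 h. The middle spread of Cnn3 was only 3.76 around a mean of 137, and it fell by 0.97 ± 0.22 (adjusted p = 0.0297). Nr0b2, the orphan receptor SHP that represses other nuclear receptors, was 25.7 and 9.99 at 4 h and 36.2 and 9.57 at 8 h, against 118 and 62.3 at 0 h and 46.2 and 42.4 at 24 h. It fell by 1.60 (adjusted p = 0.0412), although its difference from 24 h alone was -1.13 (adjusted p = 0.374) and a second probe set gave -0.30. The glutathione transferase Gstt2 fell by 1.15 (adjusted p = 0.0351) with -0.55 on a second probe set, and the peptidase Blmh fell by 1.05 (adjusted p = 0.0261).

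The 2 h arrays showed which of these levels were already there. Of the 111 rises, 54 had both 2 h arrays above all 4 end arrays, against 5.18% of all tested probe sets, and 3 of the 11 falls had both below, against 3.4%. The mean level over 2 arrays was highest at 2 h for 9 of the 111, at 4 h for 53 and at 8 h for 49. Middle minus 2 h had a median of 0.89 log2 units over the 111, against 0.01 over all. The called probe sets were chosen on the same middle and end arrays. Counts and medians over them in this paragraph therefore follow in part from that choice and are descriptions. Tested directly, 27 probe sets (0.608%) were higher in the middle than at 2 h and 20 (0.451%) lower, with 383 at an unadjusted p under 0.05. Of the 111 rises 19 were among those higher and 1, with no single symbol, among those lower.

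Ass1 had 3.36 and 2.35 at 2 h, under the floor, and the middle stood at least 4.03 log2 units above (adjusted p = 0.0084). Acsl1 had 26.2 and 23.1 at 2 h, within its range at the ends, and the middle was 3.15 higher (adjusted p = 0.0085). Scarb1 had 109 and 74.3 at 2 h, with the middle 2.73 higher (adjusted p = 0.00284), and Dgat1 had 348 and 410, with the middle 2.01 higher (adjusted p = 0.0127). For Ass1, Acsl1 and Scarb1 no 2 h array stood above the end arrays, while both 2 h arrays of Dgat1 lay just above them. Plat, at 211 and 155, was between the ends and the middle, which was 1.45 higher still (adjusted p = 0.0405), and Fdx1 at 828 and 984 was likewise between (1.44, adjusted p = 0.0411).

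Other genes were near or past their middle level at 2 h. Star had 406 and 301 at 2 h, and the middle minus 2 h difference of 0.55 was not called (adjusted p = 0.731). Nr4a3 had 388 and 258, brighter than both 8 h arrays, with a difference of -1.31 (adjusted p = 0.107). Dusp1 had 323 and 265, above all middle arrays, with -1.54 (adjusted p = 0.0511), and Klf4 had 1116 and 329, with -1.38 (adjusted p = 0.188). Nr4a1, which was not called against the ends, was 2.25 lower in the middle than at 2 h (adjusted p = 0.0378). Txnip, an inhibitor of thioredoxin and of glucose uptake, took the opposite course. It had 328 and 276 at 4 h and 252 and 276 at 8 h, against 73.5 and 72.8 at 2 h, a difference of 1.95 (adjusted p = 0.0085), while its difference from the ends was -0.35 and not called (adjusted p = 0.593). Schip1 was the 1 fall called against 2 h: it had 132 and 142 then, and the middle was 2.61 lower (adjusted p = 0.0182), whereas Nr1d1 at 50.9 and 33.4 was already below all its end arrays.

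**Figure D4:**
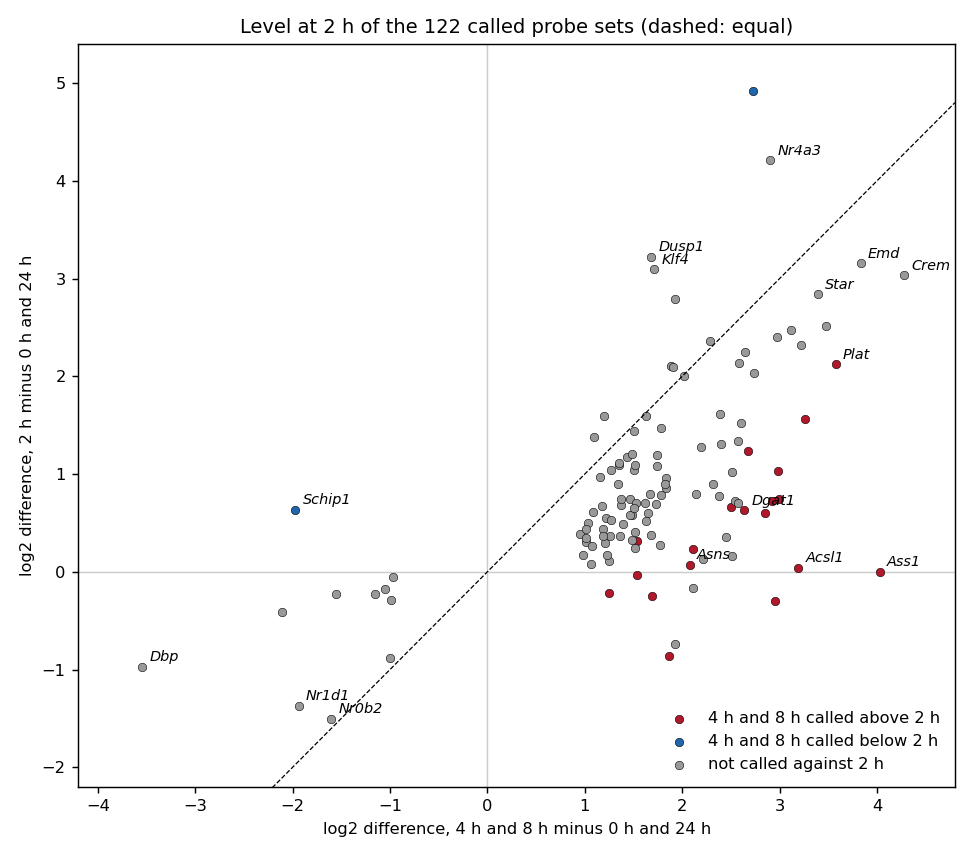
Log2 difference of 2 h from the mean of 0 h and 24 h (vertical axis) against that of 4 h and 8 h from the same ends (horizontal axis) for the 122 called probe sets; red points were called higher and the 2 blue points lower in the middle than at 2 h, grey points were not called, and the dashed line marks equality. Both axes share the end arrays, so the slope is not a result; Ass1 and Acsl1 lie near 0 at 2 h, and Nr4a3, Dusp1 and Klf4 lie above the line.

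Few probe sets were called between the middle times. Comparing 8 h with 4 h called 0 rises and 4 falls (0.0901%), with 326 at an unadjusted p under 0.05. Of the 4 falls 1, with no single symbol, was among the 111, and 8 h was above 4 h for 50 of the 111. The others included a pair of probe sets of Ocln, the tight junction protein occludin, named here after its values were seen. Ocln had 101 and 131 at 0 h, 561 and 333 at 4 h, 84.1 and 56.8 at 8 h and 44.2 and 49.6 at 24 h, so it was high at 4 h and not at 8 h, and it was not called against the ends (1.23, adjusted p = 0.448).

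Weaker calls depended on the replicate block. Without it 67 probe sets rose and 5 fell, and among named genes the calls of Scarb1, Tpm4, Nfkb1, Klf4, Pde4d, Inha, Gja1, Dusp1, Ctsl, Asns, Nr0b2, Gstt2, Blmh and Cnn3, and 1 of 2 for Pcna, Fdx1 and Nr1d1, were lost while every sign stayed. Of the 50 named probe sets called, 32 passed in each of the 8 fits with 1 array removed. Only 3, of Crem, Mvk and Ezr, passed under all of the alternatives that left out no array. Among these was the fit with no intensity filter, which called 5 rises and 1 fall in all. The fits within 1 replicate number alone are not counted here.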

How the data were processed

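Total RNA of the cultures was measured on Affymetrix rat arrays. Each array was deposited as a single linear intensity for every probe set; the steps behind it are not given in the sources used here. Without the lowest and highest 2%, array means lay between 124.57 and 124.98. Scaling gave every array a 75th percentile of 108, a floor of 13.5 (that percentile divided by 8) was applied, and values were put on the log2 scale. Without the 59 control probe sets, the others were kept where the mean over 10 arrays reached the pooled median of 31.9. A probe set under the floor in a whole group, such as those of Ass1 and Dbp, passed through its other arrays. The strongest probe sets of Crem, Emd, Mvk, Acsl1, LOC102547700, Cd24, Crispld2, Nr4a3, Ephb3, Phaf1, Gchfr and Gls2 had end means under 31.9. Those of the falls Schip1, Nr1d1 and Nr0b2 had middle means under it. Such probe sets likewise passed only through their other arrays, and their p-values are given as descriptions. Values set to the floor add no spread to the test. Intensities in the text are scaled and not floored, and a fold against a group wholly at the floor is a lower bound.

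The platform's probe table gave the gene symbols: of the tested probe sets 3713 carried 1 symbol, 197 several and 529 none. On the whole array 7006 carried 1, of which 6985 matched the RefSeq table of GRCr8 and none changed.

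The test was limma's moderated one (version 3.58.1, R 4.3.3, eBayes with an intensity trend), checked first on simulated data. The pooled fit had state and replicate number as terms (5 residual degrees of freedom). The fit with 1 mean for each time had 4. Benjamini-Hochberg adjustment ran over 4439 probe sets in each comparison. Same-numbered arrays deviated together in all 6 pairs of times (r = 0.205 to 0.608), so the numbers, taken from the labels, were treated as pairing the samples. Between replicate numbers 206 probe sets were higher and 228 lower in replicate 2, among them 9 of the 122 called.

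Genes are named by a rule: up to 20 rises and 20 falls of greatest size, from called probe sets that have 1 symbol and non-overlapping groups. Any called list member and a set linked to FSH were added. Comparison, members, lists and rule were chosen with earlier results of these data known. Alternatives changed the block, scaling, floor, filter, trend and the arrays used. No genome build is named for the arrays, so coordinates are those of the RefSeq promoter table alone.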

Additional observations from a re-analysis of the deposited data

Results flagged for a closer look

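Dixon's test was applied to each named probe set within the 4 middle arrays and within the 4 end arrays. Chance alone passes about 1 in 20 such groups, and these groups pool 2 times each. Of 114 groups, 11 had 1 array set apart by more than Dixon's 95% critical share of the whole range. Among the end arrays, Nr4a3 and Ephb3 were high on 24 h replicate 1, Phaf1 and Gchfr on 0 h replicate 2, and Gls2 on 24 h replicate 2. The ratio was 1 for each, because the other 3 arrays lay at the floor. Klf4 (ratio 0.919) was high on 24 h replicate 1 and a Pcna probe set (0.871) on 0 h replicate 2. Among the middle arrays, Blmh (0.844) and the other Pcna probe set (0.856) were high on 4 h replicate 1, and a Scarb1 probe set (0.899) on 8 h replicate 1. The weaker Dbp probe set was high on 8 h replicate 2 (ratio 1), the other 3 being at the floor.

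The middle times differed from each other at 4 probe sets by limma. The 8 h minus 4 h difference was -2.64 (adjusted p = 0.043) and -2.68 (adjusted p = 0.0299) on the Ocln probe sets. It was -2.94 (adjusted p = 0.0134) and -2.34 (adjusted p = 0.043) on a pair of probe sets with no single symbol.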

How the results depend on the processing

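All 122 called probe sets kept their direction under every alternative in which they were tested, while counts moved. Without the replicate block 67 rose and 5 fell, 21 were higher and 0 lower against both ends, and the counts called in either direction were 45 against 0 h, 26 against 24 h, 1 against 2 h, 0 between 24 h and 0 h, and 0 between 8 h and 4 h. The same contrast from the fit with 1 mean for each time called 170 rises and 27 falls, and a random block 7 falls. The 8 h against 4 h count was 1 on values as deposited and 2 after quantile normalization, and 71 were called against 2 h with the higher floor. With no intensity filter 5 rose and 1 fell, 11 were higher and 0 lower against both ends, and 80, 12 and 14 were called against 0 h, 24 h and 2 h. In that fit 1236 of 8740 probe sets were at the floor on all 8 arrays, and limma's prior degrees of freedom were 0.807, against 7.73. In fits chosen after seeing the data, leaving those out gave 62 rises and 6 falls, keeping probe sets with at most 4 of 8 arrays at the floor 106 and 10, and log2 of the value plus 16 gave 95 and 12. Within replicate 1 alone 36 rose and 3 fell, and within replicate 2 alone 83 rose and 6 fell.

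Leaving out 1 array gave 82 to 110 rises and 6 to 15 falls. Higher against both ends were 8 to 98, the 8 without 24 h replicate 1, and lower 0 to 18. Called were 76 to 483 against 0 h, 8 to 237 against 24 h, 2 to 110 against 2 h, 0 to 83 between 24 h and 0 h, and 0 to 8 between 8 h and 4 h, with the highest counts in fits without a 0 h array. Signs turned only for genes near 0 that were never called: Amh had -0.02 after quantile normalization, -0.03, -0.02, -0.03, -0.20 and -0.04 in fits without 1 array (range -0.20 to 0.14) and -0.19 within replicate 2, where Inhba had -0.04. The highest counts against 0 h, against 24 h and between 24 h and 0 h came in the fit without 0 h replicate 2. That array had the highest median deposited intensity, 44.4. The number of arrays and, for dim genes, the floor limit all of these values.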

Other observations

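Further called rises lay outside the lists and the naming rule, and are named here after their values were seen. Hagh, the glyoxalase that hydrolyses lactoylglutathione, was 581 and 453 at 4 h and 704 and 625 at 8 h, against 69.3 and 143 at 0 h and 89.5 and 128 at 24 h. It rose by 2.50 log2 units (limma, adjusted p = 0.000166). Mapkapk2, a kinase downstream of p38, rose by 2.11 (adjusted p = 0.00147), with 727 and 369 at 4 h and 1105 and 449 at 8 h, against 109 and 107 at 0 h and 265 and 124 at 24 h. Slc25a30, a mitochondrial carrier, was 1624 and 1824 at 4 h and 1549 and 1496 at 8 h, against 291 and 259 at 0 h and 895 and 623 at 24 h, a rise of 1.84 (adjusted p = 0.0114). Groups did not overlap for Hagh, Mapkapk2 or Slc25a30.

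Alas1, the first enzyme of heme synthesis, rose on both tested probe sets, by 1.35 (adjusted p = 0.0278) and 1.27 (adjusted p = 0.038). Mat2a, which makes S-adenosylmethionine, had 1337 and 723 at 4 h and 710 and 601 at 8 h, against 352 and 167 at 0 h and 316 and 244 at 24 h, and rose by 1.63 (adjusted p = 0.00258). The carbonyl reductase gene Cbr1 rose by 1.62 (adjusted p = 0.00253) and 1.39 (adjusted p = 0.00387) on its probe sets. RT1-DMa, which loads peptides on major histocompatibility complex class II molecules, rose on both of its tested probe sets, by 2.38 (adjusted p = 0.0034) and 1.21 (adjusted p = 0.0112). The brighter one had 277 and 261 at 4 h and 436 and 342 at 8 h, against 140 and 141 at 0 h and 145 and 132 at 24 h. The macrophage marker Cd14 was not called on either tested probe set. The brighter one was 88.5 and 63.4 at 4 h and 67.7 and 60.6 at 8 h. It was 72.4 and 88.3 at 0 h and 78.8 and 41.5 at 24 h. The dimmer one was 65.5 and 68.2 at 0 h, 43.6 and 32.5 at 4 h and 28.4 and 31 at 8 h. At 24 h it was 35.4 and 32.2, and its log2 difference from the ends was -0.51. Bcl2l11, which encodes the BH3 protein Bim that promotes apoptosis, rose by 1.74 (adjusted p = 0.0217), with both 24 h arrays and 1 of the 0 h arrays under the floor.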
